A study of Drosophila melanogaster with 20 samples.

Results

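The 38 heat shock and chaperonin genes described here were chosen by name from the 17807 genes of the count table, and all 38 had a row in it. They comprised 14 genes known to be induced by heat (6 copies of *Hsp70*, *Hsp68* and 7 small heat shock genes) and 24 constitutive genes, among them *Hsp83* and *DnaJ-1*, which heat raises further. A filter on low counts left 33 of them among the 10904 genes tested, 11 of the 14 inducible genes and 22 of the 24 constitutive genes. *Ada2b* encodes a subunit that ties the acetyltransferase Gcn5 into its complexes. Its PA isoform is found in the CHAT complex and its PB isoform in SAGA and ADA. *Ada2b* null embryos (null) carried a pair of null alleles of *Ada2b* over each other and made neither isoform. PA embryos and PB embryos carried the same alleles and a single copy of an Ada2b-PA or an Ada2b-PB transgene under the regulatory sequences of *Ada2b*. Of the controls, PA+PB embryos carried both transgenes on the null alleles, and *elav-Gal4>GFP* embryos (WT) carried neither the alleles nor the transgenes. All 5 genotypes shared the neuronal driver *elav-Gal4* and a *UAS* GFP reporter, by which the embryos were picked, and the counts on GFP and Gal4 were 0 for both in replicate 2 of null and PA and in replicates 1 and 2 of PB and PA+PB. The 4 biological replicates of each genotype were pools of 6 embryos at stage 12 to 14, and the label of WT replicate 3 reads stage 12 to 15.

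Heat shock proteins are chaperones that hold or refold other proteins. Heat shock factor raises the inducible genes within minutes of stress, and without stress *Drosophila* embryos hold an RNA polymerase paused at the *Hsp70* promoters. Constitutive chaperones work in all cells: Hsc70 proteins and their J-domain partners bind nascent chains, Hsp90 completes client proteins, Hsp60 folds proteins in mitochondria, and the CCT ring folds actin and tubulin in the cytosol.

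Between 1665636 and 35678749 reads per library fell on genes, and 4 libraries held under 5000000 (PA replicate 2, PB replicates 1 and 3, PA+PB replicate 1). The counts on genes were 2.39% to 32.2% of all reads, and PB replicate 4 (27.3%) stood apart from PB replicates 1 to 3 (2.53% to 5.96%). Levels are given as CPM, counts per 1000000 counts of the library after TMM scaling. Before that scaling, 3 counts in a library corresponded to 0.0841 to 1.80 per 1000000 counts on genes, a floor that covers counting error only. After it, 1 count in PB replicate 1, the shallowest library, was 0.465 CPM. *Ada2b* had 30.7 to 47.1 CPM in the null libraries and at least 106 CPM in every other library. Summed markers of muscle (5 of 5 genes found in every PB library) were at 11020, 8686, 25010 and 1801 CPM in PB replicates 1 to 4, against 1533 to 4335 CPM in PA+PB and 10740, 1820, 1666 and 1568 CPM in WT replicates 1 to 4. Those of hemocytes and fat body were at 5501, 3845, 13700 and 1012 CPM in PB, against 251.5 to 3587 CPM in PA+PB and 178 to 6084 CPM in WT. The null libraries had 3525 to 5671 CPM for muscle and 1139 to 1760 CPM for hemocytes and fat body. Muscle and hemocyte RNA was thus highest in the same 3 PB libraries and in WT replicate 1. Markers of trachea (2047 CPM) and of epidermis and cuticle (1552 CPM) were also highest in WT replicate 1. Summed markers of glia (3 of 3 genes found in every library) were at 421 to 463 CPM in null, 257 to 368 CPM in PA and 261 to 562 CPM in PB, against 32.1 to 322 CPM in PA+PB and 131 to 306 CPM in WT. Those of neurons were at 752 to 933 CPM in null, 241 to 746 CPM in PA and 598 to 1596 CPM in PB, against 71.7 to 721 CPM in PA+PB and 291 to 743 CPM in WT. Of the 5 neuron genes, 2 were found in every PA library, 3 in every PB library and 4 in every PA+PB library. All 4 null libraries were thus above all 8 controls for the glia and neuron lists, as for the 15 genes given below, and for none of the other marker lists. The part of these tissues in the values below was not tested. In whole embryos, fewer cells of a type and less RNA per cell cannot be told apart.

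Per kb of exon, the 17 highest of the 38 genes by the mean of 20 libraries were all constitutive, while the constitutive *Hsc70-2*, *Hsc70-1*, *Hsp60B* and *Hsp60C* ranked 28, 32, 35 and 36 (the plot of mean levels shows the tested genes). *Hsc70-4*, the main cytosolic Hsc70, had the highest level of all 38 genes, its means being 1170 (null), 1320 (PA), 1208 (PB), 859 (PA+PB) and 798 CPM per kb (WT). *Gp93*, the Hsp90 of the endoplasmic reticulum, had 150.5 to 339 CPM per kb by genotype, and *Hsc70-3*, its Hsp70 (BiP), 181 to 271 CPM per kb. *Hsp83*, the cytosolic Hsp90, had 171 CPM per kb in null, 185 in PA and 500 in PB, against 78.3 in PA+PB and 68.4 in WT. *Gp93* ranked second in null, PA and WT, *Hsp83* in PB and *Hsc70-3* in PA+PB. Among the inducible genes the order depended on the genotype. The small heat shock gene *Hsp27* was first in null, at 105 CPM per kb, and *Hsp70Ab* was first in PB, at 109 CPM per kb, while *Hsp70Ab* had 0.675 CPM per kb in PA+PB and 4.79 in WT. Reads shared by the nearly identical *Hsp70* copies were not counted, so the levels and ranks of these copies can be too low.

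**Figure D1:**
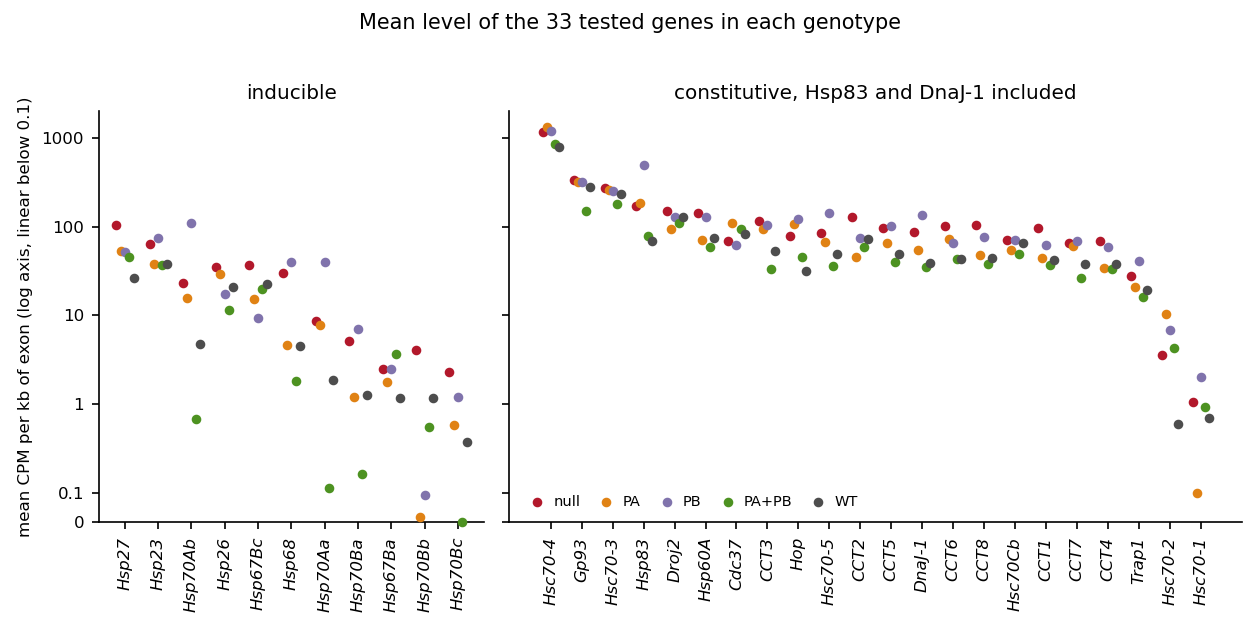
Mean level of the 33 tested genes in each genotype, in CPM per kb of exon on a log axis that is linear below 0.1, with inducible genes at left and constitutive genes at right, each ordered by mean level. Points are means of 4 libraries, in the order null, PA, PB, PA+PB and WT. *Hsc70-4* leads at 798 to 1320 CPM per kb, and the *Hsp70* copies span the widest range between genotypes, with *Hsp70Ab* between 0.675 and 109.

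Log2 fold changes were fitted with edgeR in 1 model of all 20 libraries with genotype and 1 factor of unwanted variation, and a gene was called where its Benjamini-Hochberg adjusted p (FDR) lay under 0.05 and its log2 fold change was 0.5 or more in size. In this fit no gene of the 38 was called lower in null, PA or PB embryos than in either control. In null embryos 0 of 33 genes were called against WT, where 0.0459% of all genes were called higher and 4.56% lower (4.6% in either direction), and 3 genes were called higher against PA+PB (*Hsp70Aa*, *Hsp70Ab* and *CCT3*), where 0.11% of all genes were called higher and 3.29% lower (3.4% in either direction). In PA embryos 0 genes were called against WT (0.0275% of all genes higher and 0.0825% lower) and 1 gene, *Hsp70Aa*, was called higher against PA+PB (0.147% of all genes higher and 0.385% lower, 0.532% in all). In PB embryos 3 genes were called higher against WT (*Hsp83*, *DnaJ-1* and *Hsp70Ab*; 0.193% of all genes higher and 0.679% lower, 0.871% in all), and 10 against PA+PB (2.58% of all genes higher and 4.1% lower, 6.68% in all). The 3 genes called against WT were among the 10, so that PB embryos had 3 of 33 genes called higher against both controls, against 0.183% of all genes. The other 7 called in PB against PA+PB alone were *Hsp70Aa*, *Hsp70Ba*, *Hsp70Bc*, *Hsp68*, *Hsc70-5*, *CCT3* and *CCT7*.

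At an unadjusted p under 0.05 in edgeR's quasi-likelihood test, 5 genes were higher and 0 lower in null against WT (1.68% and 12.6% of all genes), 12 and 0 in null against PA+PB (3.34% and 13.9%), 8 and 1 in PA against WT (7.41% and 7.07%), and 14 and 0 in PA against PA+PB (11% and 9.54%). In PB embryos 14 were higher and 0 lower against WT (11.3% and 10.7% of all genes), and 17 and 0 against PA+PB (15.4% and 14.5%). DESeq2's Wald test called 3 genes in null against WT, all higher, where it called 1.35% of all genes higher, and 4 in PA against WT, 3 of them higher, where it called 2.33% of all genes higher. Against PA+PB it called 8 in null, 8 in PA and 13 in PB, and against WT 9 in PB, all higher, beside 1.22%, 4.04%, 9.15% and 5.26% of all genes called higher. The median fitted log2 fold change of the 33 genes was 0.82 in null against WT and 1.002 in null against PA+PB, beside -0.18 and -0.26 over all genes tested. In PA embryos it was 0.67 against WT and 0.89 against PA+PB, beside 0.12 and 0.03 over all genes, and in PB embryos 1.14 and 1.21, beside 0.23 and 0.22. The comparisons with one control share its libraries. Without the factor of unwanted variation the medians over all genes shifted to 0.40 (null against WT) and 0.49 (null against PA+PB), while those of the 33 genes were 0.97 and 1.23. The plot of fitted fold changes shows both controls side by side.

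**Figure D2:**
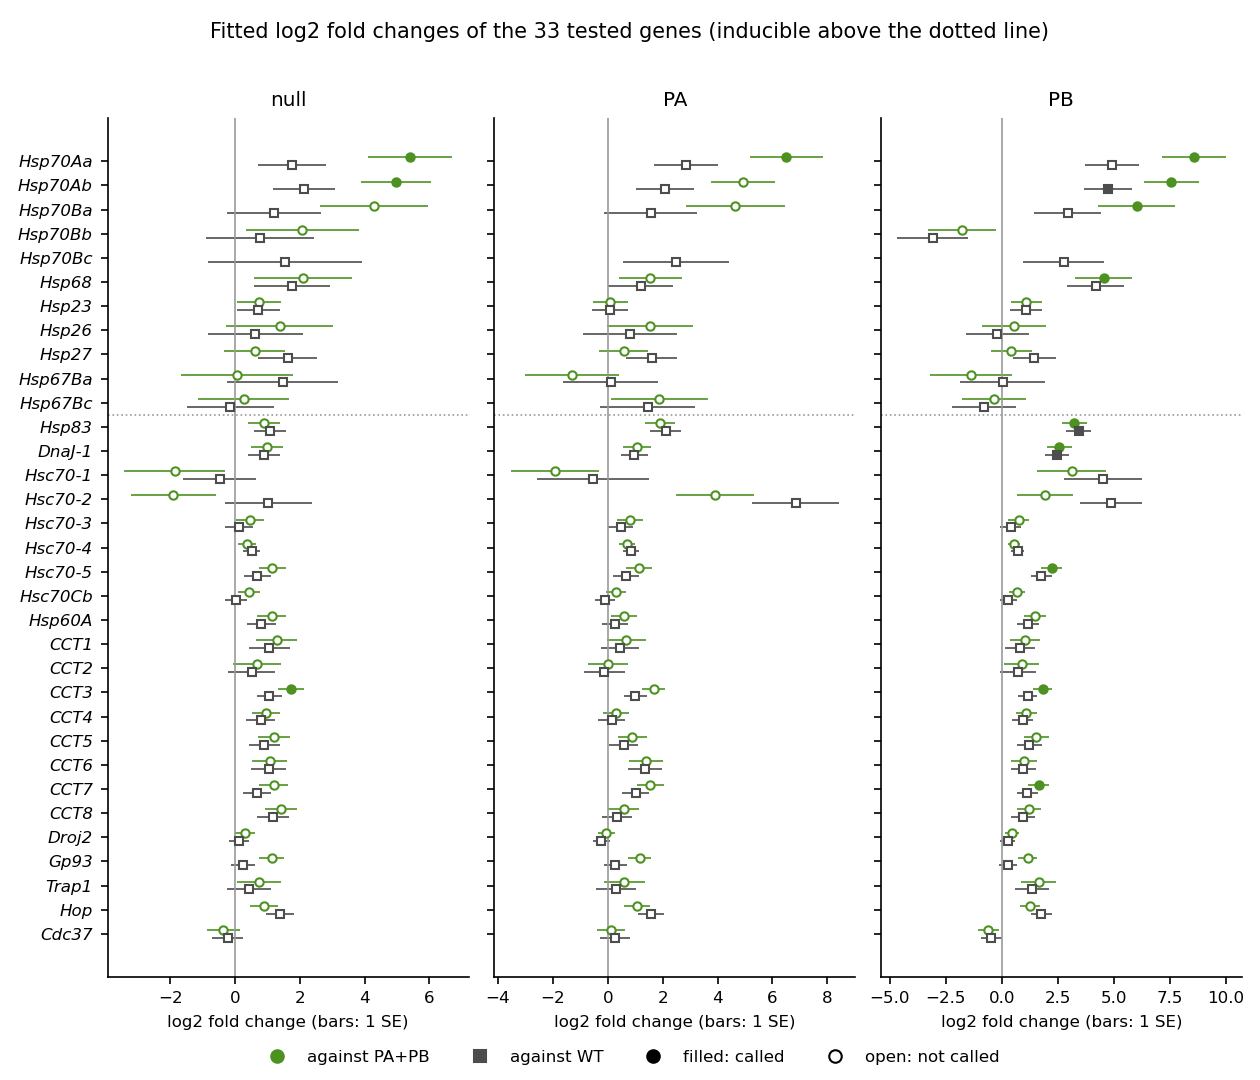
Fitted log2 fold changes (x axis, edgeR, bars of 1 SE) of the 33 tested genes in null, PA and PB embryos against PA+PB (circles) and WT (squares), with called genes filled and inducible genes above the dotted line. *Hsp70Bc* against PA+PB and *Hsp70Bb* in PA are not drawn, since nearly no counts stood in one of the groups. The filled points are 3 in null, 1 in PA and 12 in PB (13 calls with *Hsp70Bc*), and the x axes differ between panels.

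Libraries were also compared directly, without the model. All 4 null libraries lay above all 8 control libraries in CPM for 15 of 33 genes (45.5%), against 10.2% of all genes tested, and none of the 33 lay below, against 14% of all genes. These 15 were *Hsp70Aa*, *Hsp70Ab*, *Hsp70Ba*, *Hsp70Bb*, *Hsp70Bc*, *Hsp68*, *Hsp27*, *DnaJ-1*, *CCT1*, *CCT2*, *CCT3*, *CCT5*, *CCT6*, *CCT8* and *Hop*. In PA embryos 2 genes (*Hsc70-4* and *Hop*; 6.06%) lay above all controls, against 1.16% of all genes, and in PB embryos 3 genes (*Hsp83*, *DnaJ-1* and *Hsc70-5*; 9.09%), against 1.67%. The null count was 15 to 18 with any 1 library left out (10.2% to 13.9% of all genes). Without the 4 libraries under 5000000 counts it was 16 (13.9% of all genes) and the PB count also 16 (12.8% of all genes), where PB had replicates 2 and 4 alone. With DESeq2's size factors the null count was 20 (14.3% of all genes). The PB count was then 4 (2.13% of all genes), *DnaJ-1*, *Hsc70-5*, *CCT3* and *CCT8*, without *Hsp83*. A model of the null and WT libraries alone called 20 of 34 genes higher in null and 0 lower, while it also called 17.8% of all genes higher. These 20 were the 5 *Hsp70* copies other than *Hsp70Bbb*, *Hsp68*, *Hsp27*, *Hsp83*, *DnaJ-1*, *Hsc70-2*, all 8 CCT genes, *Gp93* and *Hop*.

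Among the inducible genes the *Hsp70* copies differed most between genotypes. The copies stand in 2 clusters on chromosome 3R: *Hsp70Aa* (FBgn0013275, chr3R:11954163-11956544) and *Hsp70Ab* (FBgn0013276, chr3R:11958535-11960909), and *Hsp70Ba* (FBgn0013277, chr3R:12465453-12467776), *Hsp70Bbb*, *Hsp70Bb* and *Hsp70Bc* (FBgn0013279, chr3R:12509076-12511461). Their sequences are nearly identical and each is a single exon. Reads without a unique alignment were not counted, so the levels of the copies and of their sum can be too low. The split of reads between copies is also uncertain. Summed over the 6 copies, null replicates 1 to 4 had 134.9, 128.5, 75.7 and 75.3 CPM, PA replicates 151, 55.5, 27.0 and 10.2 CPM, and PB replicates 120.0, 881, 476 and 24.9 CPM. The controls had 6.72, 3.16, 5.74 and 5.05 CPM in PA+PB and 10.9, 43.3, 24.7 and 12.0 CPM in WT. Every null library was thus above every control, and every PA and PB library was above every PA+PB library. PA replicate 4 lay just below the lowest WT library, and PA replicate 3 and PB replicate 4 lay within the WT range. PB replicates 2 and 3 stood far above all other libraries.

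*Hsp70Ab* had 76.5, 68.8, 41.6 and 34.1 CPM in null, 87.5, 46.2, 8.53 and 8.54 CPM in PA, and 110.3, 560, 349 and 14.0 CPM in PB, against 2.65, 1.91, 0.122 and 1.73 CPM in PA+PB and 5.97, 23.9, 9.72 and 5.97 CPM in WT. It was higher in null than in PA+PB by a log2 fold change of 4.97 (SE 1.08, adjusted p = 0.0182 in edgeR's quasi-likelihood test), and the 2.13 against WT (SE 0.95, adjusted p = 0.295) was not called. In PB embryos it was higher than in both controls, by 7.58 against PA+PB (SE 1.22, adjusted p = 0.00252) and by 4.74 against WT (SE 1.08, adjusted p = 0.0416). *CG3281* overlaps it on the other strand.

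*Hsp70Aa* had 25.4, 26.7, 14.9 and 15.1 CPM in null, 51.4, 7.47, 14.8 and 1.44 CPM in PA, and 9.30, 249, 120.8 and 4.62 CPM in PB, against 0, 0.416, 0.244 and 0.433 CPM in PA+PB and 2.83, 7.33, 5.29 and 2.54 CPM in WT. No library of the other genotypes came down to the PA+PB range. Its log2 fold changes against PA+PB were 5.41 in null (SE 1.30, adjusted p = 0.0279), 6.50 in PA (SE 1.33, adjusted p = 0.037) and 8.57 in PB (SE 1.43, adjusted p = 0.00306) in edgeR's quasi-likelihood test. Against WT none was called, and the largest was 4.92 in PB (SE 1.22, adjusted p = 0.0554).

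The B copies follow. *Hsp70Ba* had 16.2, 15.3, 7.18 and 9.34 CPM in null and 0, 55.6, 5.24 and 4.76 CPM in PB, against 0.611, 0, 0.122 and 0.793 CPM in PA+PB and 1.13, 5.61, 3.57 and 1.57 CPM in WT, while PA libraries had 6.25, 1.78, 3.20 and 0 CPM. It was called only in PB against PA+PB (log2 fold change 6.02, SE 1.73, adjusted p = 0.0442 in edgeR), with replicate 2 far above the other PB libraries. *Hsp70Bc* had 8.92, 5.01, 2.71 and 5.07 CPM in null, 5.24, 0, 0 and 0.240 CPM in PA, and 0, 11.1, 0.477 and 0.0328 CPM in PB, against 0.333, 0.711, 1.92 and 0.607 CPM in WT and no count in any PA+PB library. It was called in PB against PA+PB (adjusted p = 0.0441 in edgeR), where replicate 2 held nearly all of its counts, and this call was lost in 10 of 15 alternatives. Its mean in null was at least 15.0-fold higher than the mean CPM of 3 counts per PA+PB library.

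The reads assigned to *Hsp70Bb* went another way. *Hsp70Bb* had 5.97, 12.1, 8.64 and 11.2 CPM in null, but 0.169, 0, 0 and 0 CPM in PA and 0, 0, 0 and 0.886 CPM in PB, against 2.85, 0.0831, 0.244 and 2.02 CPM in PA+PB and 0.6, 5.50, 3.61 and 1.18 CPM in WT. No PA library held 3 counts of it. Against null its log2 fold change in PB was -3.85 (SE 1.78, adjusted p = 0.354 in edgeR), which was not called. DESeq2's Wald test called it lower in PA against WT (-4.99, SE 1.65, adjusted p = 0.0422) and against null (-6.59, SE 1.78, adjusted p = 0.00649). With 0 factors edgeR also called it lower in PA against null (-7.59, SE 2.16, adjusted p = 0.0428). *Hsp70Bbb*, which the filter removed, had up to 5.07 CPM (PB replicate 2) and up to 5.01 CPM in the controls (PA+PB replicate 3).

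*Hsp68* (FBgn0001230, chr3R:24055080-24057310), an inducible relative of *Hsp70* outside both clusters, had 85.5, 92.1, 48.2 and 43.3 CPM in null, 22.5, 0, 18.03 and 0.842 CPM in PA, and 0, 90.2, 251 and 19.7 CPM in PB. The controls had 6.72, 1.66, 3.79 and 3.90 CPM in PA+PB and 6.93, 16.6, 12.5 and 4.40 CPM in WT. All null libraries lay above all controls, while PA and PB overlapped them and each held a library without a count. The ratio of mean CPM between null and WT was 2.74 on the log2 scale, the fitted log2 fold change was 1.75 (SE 1.17, adjusted p = 0.60 in edgeR), and a model of the null and WT libraries alone gave 2.77 (SE 0.60, adjusted p = 0.00486 in edgeR). In PB it was called against PA+PB (4.55, SE 1.28, adjusted p = 0.0407) and not against WT (4.21, SE 1.27, adjusted p = 0.0974). *CG6000* and *lncRNA:CR44097* overlap it on the other strand.

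The 7 genes grouped as small heat shock genes lie together on chromosome 3L, and the annotation names *Hsp67Bb* *CG4456*. Of the 7, 5 were tested, which encode holdase chaperones, and none was called by edgeR in any of the 10 comparisons. *Hsp27* (FBgn0001226, chr3L:9384063-9385694) had 180.3, 264.8, 130.1 and 110.6 CPM in null, 56.4, 17.4, 160.1 and 115.5 CPM in PA, and 19.5, 213, 0 and 102 CPM in PB, against 97.4, 56.4, 67.7 and 71.7 CPM in PA+PB and 30.3, 48.9, 59.6 and 34.2 CPM in WT. The null libraries were above all controls, and its fitted log2 fold change against WT was 1.63 (SE 0.91, adjusted p = 0.473 in edgeR). Without the 4 libraries under 5000000 counts it was called by edgeR in null against WT at 1.86 (SE 0.45, adjusted p = 0.016) and in PB against WT at 1.83 (SE 0.45, adjusted p = 0.0323). That setting kept PB replicates 2 and 4 (213 and 102 CPM) and left out PB replicates 1 and 3 (19.5 and 0 CPM). *Hsp23*, *Hsp26*, *Hsp67Ba* and *Hsp67Bc* overlapped between each genotype and the controls. *Hsp23* averaged 57.0 ± 22.7 CPM in null, 33.8 ± 23.9 CPM in PA and 65.9 ± 34.8 CPM in PB, against 32.4 ± 4.96 CPM in PA+PB and 33.3 ± 12.6 CPM in WT (SD, n = 4 each). In all 10 comparisons 0 of the 5 small heat shock genes reached an unadjusted p under 0.05 in edgeR's quasi-likelihood test, and DESeq2's Wald test called 0. *Hsp27* was also called in null against WT by edgeR in the model of those libraries alone (2.06, SE 0.42, adjusted p = 0.00341).

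**Figure D3:**
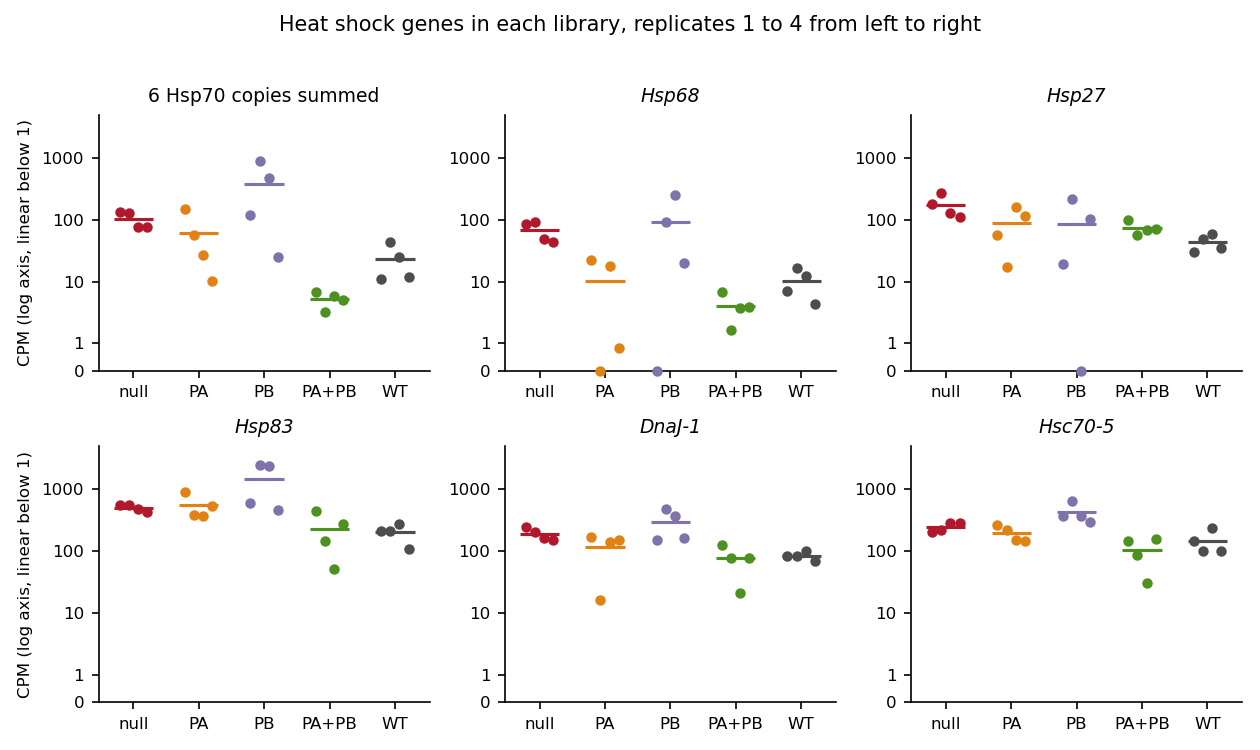
CPM of the 6 summed *Hsp70* copies, *Hsp68*, *Hsp27*, *Hsp83*, *DnaJ-1* and *Hsc70-5* in each library (log axis, linear below 1), with replicates 1 to 4 from left to right in each genotype and lines at the mean of 4. The null libraries lie close together, PB replicates 2 and 3 are the highest for the *Hsp70* sum (881 and 476 CPM) and *Hsp83* (2466 and 2410 CPM), and points at 0 are libraries without a count.

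*Hsp83* (FBgn0001233, chr3L:3192969-3197059), which encodes the cytosolic Hsp90, was called higher in PB than in both controls. It had 553, 558, 475 and 433.5 CPM in null, 898, 386, 369 and 539.9 CPM in PA, and 590.3, 2466, 2410 and 454 CPM in PB, against 449.5, 147, 52.4 and 278 CPM in PA+PB and 210.4, 215.5, 277 and 107 CPM in WT. All 4 PB libraries were above all 8 controls with TMM scaling, but not with DESeq2's size factors. PB replicate 4 (454 CPM) lay barely above PA+PB replicate 1 (449.5 CPM), and replicates 2 and 3 were several times higher than replicates 1 and 4. Its log2 fold change in PB was 3.44 against WT (SE 0.57, adjusted p = 0.00552) and 3.24 against PA+PB (SE 0.56, adjusted p = 0.00331) in edgeR's quasi-likelihood test. Both calls held in 15 of 16 alternatives and were lost with only the 2 genotypes in the model. In null the log2 fold changes were 1.09 against WT (SE 0.50, adjusted p = 0.309) and 0.89 against PA+PB (SE 0.50, adjusted p = 0.376), and in PA 2.11 (SE 0.56, adjusted p = 0.145) and 1.91 (SE 0.56, adjusted p = 0.095), none of them called. *CG14966* overlaps it on the other strand.

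*DnaJ-1* (FBgn0263106, chr3L:5750029-5752189) encodes an Hsp40, the J-domain partner of Hsp70. It had 243, 200.4, 162 and 154 CPM in null, 166.5, 16, 138 and 149 CPM in PA, and 152, 482, 367 and 164 CPM in PB, against 128, 77.0, 21 and 78.9 CPM in PA+PB and 82.8, 84.2, 102 and 68.6 CPM in WT. Every null and every PB library lay above every control, and PA replicate 2, with 16 CPM, lay under them. It was called in PB against WT (log2 fold change 2.47, SE 0.56, adjusted p = 0.04) and against PA+PB (2.57, SE 0.55, adjusted p = 0.0122) in edgeR's quasi-likelihood test. In null it was 0.90 against WT (SE 0.49, adjusted p = 0.45) and 1.002 against PA+PB (SE 0.49, adjusted p = 0.307).

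The calls of *Hsp70Ab* and *DnaJ-1* in PB against WT depended on single libraries, that of *Hsp83* did not. With PB replicate 2 or any 1 of WT replicates 1 to 4 left out, *Hsp83* alone was called, while over all alternatives the log2 fold changes stayed at 3.91 to 5.48 for *Hsp70Ab* and 1.76 to 2.57 for *DnaJ-1*, and 7 genes were called without PB replicate 1 and 6 without PB replicate 4. Without the 4 libraries under 5000000 counts, 8 genes were called against WT, where 0.995% of all genes were called higher, and with the PB and WT libraries alone 0 were. The former setting kept PB replicates 2 and 4 alone. Of the 10 calls of PB against PA+PB, 3 were left without PB replicate 2, 4 without PA+PB replicate 3 and 5 without PA+PB replicate 2. By gene, the PB calls against PA+PB were lost in 1 of 16 alternatives for *Hsp70Aa*, *Hsp70Ab* and *Hsp83*, 3 for *Hsc70-5*, 4 for *DnaJ-1* and *CCT3*, and 9 for *Hsp68* and *CCT7*, and in 7 of 15 for *Hsp70Ba*. Against WT they were lost in 6 of 16 for *Hsp70Ab* and 8 of 16 for *DnaJ-1*. The 3 null calls against PA+PB fell to 0 without null replicate 1, 2 or 3, PA+PB replicate 2, or the 4 libraries under 5000000 counts, and to 1 without null replicate 4. The PA call against PA+PB was lost without PA replicate 1 or PA+PB replicate 2 or 3, and 5 genes were called without PA replicate 3. Shares of all genes called are not given for the fits with 1 library left out. Their counts alone do not tell a change of these genes from a change in calls over all genes.

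Among the Hsc70 genes, which encode the constitutive Hsp70s, 6 of 6 were tested and 1 was called. *Hsc70-5* (FBgn0001220, chr2R:14252598-14256192), the Hsp70 of mitochondria, had 200.6, 219.8, 285 and 281 CPM in null, 262, 216, 154 and 145 CPM in PA, and 373.5, 651, 363 and 298 CPM in PB, against 145, 86.0, 30.0 and 157.5 CPM in PA+PB and 147, 100.1, 234 and 99.8 CPM in WT. All PB libraries were above all controls. It was higher in PB than in PA+PB by a log2 fold change of 2.24 (SE 0.47, adjusted p = 0.0106 in edgeR), and the 1.77 against WT (SE 0.47, adjusted p = 0.0685) was not called.

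*Hsc70-4* (FBgn0266599, chr3R:15242687-15246614) had 3399, 3151, 3004 and 3161 CPM in null, 3536, 3630, 3394 and 3779 CPM in PA, and 2774, 4287, 2956 and 3111 CPM in PB. The controls had 2610, 1275, 2756 and 2693 CPM in PA+PB and 3137, 1437, 2653 and 1443 CPM in WT. All PA libraries were above all controls, and its fitted log2 fold changes in PA were 0.85 against WT (SE 0.29, adjusted p = 0.235) and 0.70 against PA+PB (SE 0.28, adjusted p = 0.167), neither called by edgeR. *Hsc70-3* and *Hsc70Cb*, an Hsp110 that exchanges the nucleotide of Hsp70, had log2 fold changes between -0.10 and 0.82 in null, PA and PB against the 2 controls, and none was called. *Hsc70-2* was low, with 6.95, 1.13, 12.5 and 10.4 CPM in null, 45.5, 0, 21.03 and 23.9 CPM in PA, and 0, 8.69, 17.6 and 32.6 CPM in PB, against 13.7, 9.31, 0 and 14.8 CPM in PA+PB and 1.5, 1.61, 1.49 and 0.607 CPM in WT. In 3 PA libraries it was thus above all controls. It was not called by edgeR in PA against WT (log2 fold change 6.85, SE 1.58, adjusted p = 0.114) and was called by DESeq2's Wald test (6.16, SE 1.08, adjusted p = 1.181e-06). The means were 22.6 CPM in PA, 9.44 CPM in PA+PB and 1.30 CPM in WT, a smaller difference between PA and WT than fitted. The Wald test also called *Hsc70-2* in PB against WT (4.80, SE 1.03, adjusted p = 0.0003) and in PA against PA+PB (3.16, SE 1.03, adjusted p = 0.0262). *Hsc70-1* had at most 12.4 CPM in any library.

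Of the Hsp60 genes only *Hsp60A* (FBgn0015245), the mitochondrial chaperonin, was tested. It had 232, 379.5, 397 and 405 CPM in null, 164, 139.7, 218 and 186 CPM in PA, and 292, 443, 252 and 287 CPM in PB, against 247, 95.2, 39.9 and 208 CPM in PA+PB and 208, 119.7, 330.1 and 87.2 CPM in WT. Null replicate 1 stood below the other 3 null libraries and within the range of the controls. Its largest log2 fold change was 1.49 in PB against PA+PB (SE 0.49, adjusted p = 0.0649 in edgeR), which was not called.

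The 8 CCT genes encode the 8 different subunits of 1 ring and lie on chromosome arms X, 2L, 2R and 3R. All 8 had positive log2 fold changes in null against WT (0.51 to 1.18, median 0.98), in null against PA+PB (0.67 to 1.73, median 1.21), in PB against WT (0.73 to 1.24, median 0.97) and in PB against PA+PB (0.88 to 1.83, median 1.15), and all 8 stayed positive in these comparisons with DESeq2's size factors, with 0 or 2 factors and without the libraries under 5000000 counts. With 0 factors the medians over all genes were also positive in null, as given above. In PA the medians of the 8 genes were 0.51 against WT, with 7 of 8 positive, and 0.78 against PA+PB, with 8 of 8 positive. Calls were few, 1 of 8 in null, 0 in PA and 2 in PB against PA+PB (5, 3 and 5 at an unadjusted p under 0.05 in edgeR; 3, 2 and 3 by DESeq2's Wald test), and 0 against WT in null, PA or PB, where 2, 3 and 3 of 8 had an unadjusted p under 0.05 in edgeR and DESeq2's Wald test called 2, 0 and 1. Summed, the 8 genes had 1397, 1595, 1570 and 1685 CPM in null, 754, 944, 929 and 1111 CPM in PA, and 969.5, 1725, 787 and 1450 CPM in PB, against 937, 515, 191.5 and 832 CPM in PA+PB and 632, 663, 1207 and 561 CPM in WT. The null libraries were the most alike and all above the controls, of which WT replicate 3 was the highest.

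*CCT3* (FBgn0015019, chr3R:16647605-16649978) had 241, 246.8, 242 and 275 CPM in null, 144.5, 195, 157 and 316.5 CPM in PA, and 205, 296, 178 and 228 CPM in PB, against 75.6, 55.5, 37.6 and 118 CPM in PA+PB and 101, 85.1, 197 and 79.5 CPM in WT. Every null, PA and PB library was above every PA+PB library. It was called against PA+PB in null (log2 fold change 1.73, SE 0.39, adjusted p = 0.0219) and in PB (1.83, SE 0.41, adjusted p = 0.0165) in edgeR's quasi-likelihood test, and the 1.68 in PA (SE 0.42, adjusted p = 0.0644) was not called. Against WT it was 1.06 in null (SE 0.38, adjusted p = 0.148). *CCT7* (FBgn0037632, chr3R:8801564-8806234) had 109.8, 134, 129 and 144 CPM in null, 78.6, 136, 121 and 140.1 CPM in PA, and 91.6, 212, 64.8 and 177 CPM in PB, against 84.1, 31.3, 22.96 and 67.5 CPM in PA+PB and 63.1, 65.3, 114 and 55.3 CPM in WT. It was called in PB against PA+PB alone (1.66, SE 0.47, adjusted p = 0.0429 in edgeR), where the groups overlapped. *CG9839* overlaps *CCT7* and *EndoG* overlaps *CCT5* on the other strand.

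The proportions of the subunits were also compared. As a share of the summed CPM per kb of the 8 genes, every subunit averaged between 8.43% (*CCT7*) and 16.4% (*CCT2*) in null and between 9.95% (*CCT4*) and 19.4% (*CCT2*) in WT. In PA the spread between libraries was larger, and *CCT2* ran from 0% in replicate 2 to 19.1%. *CCT3* averaged 19.8% ± 4.81 in PA and 17.7% ± 3.04 in PB, against 12.3% ± 4.79 in PA+PB and 13.8% ± 1.53 in WT (SD, n = 4 each), and its 14.9% ± 0.82 in null lay within the control range. The share of *CCT7* was 8.05% to 8.73% in null, below the 9.67% to 10.2% in WT and within the 6.20% to 12.5% in PA+PB, a description with no test.

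**Figure D4:**
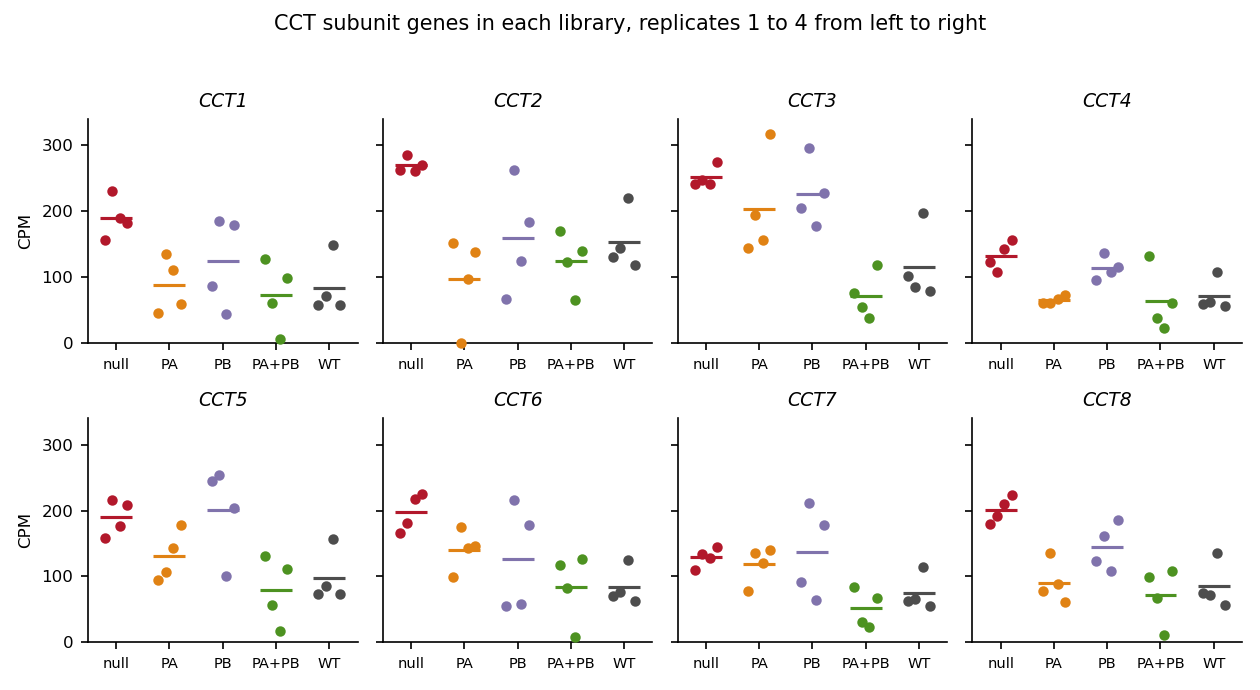
CPM (linear axis) of the 8 CCT subunit genes in each library, with replicates 1 to 4 from left to right in each genotype and lines at the mean of 4. The null libraries lie above all 8 control libraries for *CCT1*, *CCT2*, *CCT3*, *CCT5*, *CCT6* and *CCT8*, and WT replicate 3 is the highest WT library in every panel.

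Of the co-chaperones and organelle Hsp90s, 5 of 5 were tested and none was called by edgeR in the fit described above. *Hop* (FBgn0024352), which links Hsp70 to Hsp90, had 162.0, 163, 141 and 174 CPM in null, 179.8, 324, 172 and 183 CPM in PA, and 350.3, 335, 93.4 and 209 CPM in PB, against 135, 88.7, 46.5 and 93.9 CPM in PA+PB and 36.4, 64.9, 99.7 and 53.8 CPM in WT. All null and all PA libraries lay above all controls, and PB replicate 3 did not. Its log2 fold changes against WT were 1.39 in null (SE 0.43, adjusted p = 0.0732), 1.57 in PA (SE 0.47, adjusted p = 0.185) and 1.77 in PB (SE 0.46, adjusted p = 0.0655), and against PA+PB 0.89, 1.06 and 1.27, none of them called by edgeR's quasi-likelihood test. DESeq2's Wald test called it against WT in null (1.66, SE 0.42, adjusted p = 0.00208), PA (1.46, SE 0.45, adjusted p = 0.0272) and PB (1.77, SE 0.45, adjusted p = 0.00365), and against PA+PB in PB (1.12, SE 0.43, adjusted p = 0.0479). In null against WT edgeR called it with DESeq2's size factors (1.71, SE 0.41, adjusted p = 0.0352) and with 2 factors (1.51, adjusted p = 0.0188). In PB against WT edgeR called it with DESeq2's size factors (1.74, adjusted p = 0.0495), 0 factors (1.955, adjusted p = 0.0299) and 2 factors (2.03, adjusted p = 0.0165). Without the libraries under 5000000 counts it was also called there (2.05, adjusted p = 0.0082 in edgeR). It was not called with the PB and WT libraries alone or without the filter.

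*Gp93* (FBgn0039562) had 830.4, 951, 1106 and 969 CPM in null, 837.5, 955, 748 and 1103 CPM in PA, and 978, 1186, 319 and 1142 CPM in PB, against 638, 317, 209.8 and 546 CPM in PA+PB and 429, 876, 1073 and 794.5 CPM in WT. The WT libraries overlapped all 3 groups, and the PA+PB libraries lay below all null and PA libraries. In null against PA+PB its log2 fold change was 1.14 in edgeR (SE 0.39, adjusted p = 0.114), not called, and DESeq2's Wald test called it (1.26, SE 0.42, adjusted p = 0.023). *Trap1*, the Hsp90 of mitochondria, *Droj2*, a J-domain protein, and *Cdc37*, which brings kinases to Hsp90, had log2 fold changes between -0.60 and 1.66 against the controls. *Cdc37* had negative log2 fold changes in null (-0.23 against WT and -0.36 against PA+PB) and in PB (-0.47 and -0.60), none of them called.

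Between the mutant genotypes, 0 genes were called in PA against null (1.87% of all genes were called higher and 0.431% lower, 2.3% in all), 0 in PB against null (0.0642% higher, 0.0825% lower) and 0 in PA against PB (0.00917% of all genes lower and 0% higher). At an unadjusted p under 0.05 in edgeR, 1 gene was higher and 1 lower in PA against null (13% and 4.89% of all genes), 7 were higher and 1 lower in PB against null (10.6% and 2.83%), and 0 were higher and 6 lower in PA against PB (8.98% and 12.4%). DESeq2's Wald test called 2 genes in PA against null (*Hsc70-2* higher, *Hsp70Bb* lower), 1 in PB against null (*Hsp83*, 2.18, SE 0.65, adjusted p = 0.0349) and 6 in PA against PB, all lower (*Hsp70Ab*, *Hsp68*, *Hsp83*, *DnaJ-1*, *Hsc70-1* and *Hsc70-5*), where it called 984 of all genes lower and 376 higher. In PA against null it called 402 of all genes higher and 475 lower, and in PB against null 112 higher and 157 lower. In edgeR the log2 fold change of *Hsp83* in PA against PB was -1.33 (SE 0.49, adjusted p = 0.163) and that of *DnaJ-1* -1.50 (SE 0.50, adjusted p = 0.148). Apart from *Hsp70Aa* against PA+PB, the calls of PB embryos and their absence in PA embryos are therefore not shown to differ by edgeR's test. *Hsp70Aa* was called against PA+PB in both genotypes.

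The controls were compared with each other. In WT against PA+PB 0 genes of 33 were called (0.0183% of all genes), with 4 higher and 1 lower at an unadjusted p under 0.05 in edgeR (2.73% and 0.963% of all genes) and 0 called by DESeq2's Wald test. The 6 tested genes of the *Hsp70* class all had positive log2 fold changes in WT (0.35 to 6.71, median 2.96), and the summed copies of the 4 WT libraries (10.9 to 43.3 CPM) lay above those of the 4 PA+PB libraries (3.16 to 6.72 CPM). For the CCT genes the median was 0.24.

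Other genes of the chaperone and stress pathways were read from a list of 46 genes, of which 44 were in the table and 41 were tested. In null against WT 0 of 41 were called higher and 4 lower, beside 4.56% of all genes lower: *CHIP*, a ubiquitin ligase that works with Hsp70 (log2 fold change -3.65, SE 1, adjusted p = 0.0395), *Sod1*, a superoxide dismutase (-2.57, SE 0.57, adjusted p = 0.0118), *PEK*, a kinase of the unfolded protein response (-2.64, SE 0.49, adjusted p = 0.00489), and *Csp*, a J-domain protein of synaptic vesicles (-1.32, SE 0.32, adjusted p = 0.0189), all in edgeR. In null against PA+PB 1 was called higher (*Xbp1*, the transcription factor of the unfolded protein response, 1.54, SE 0.41, adjusted p = 0.0431) and 4 lower (*Hip-R*, *CHIP*, *Sod1* and *PEK*), beside 0.11% and 3.29% of all genes. In PB against PA+PB 2 were called higher (*stv*, a BAG-domain partner of Hsc70, 4.51, SE 1.34, adjusted p = 0.0483, and *Xbp1*, 1.93, SE 0.46, adjusted p = 0.0208) and 5 lower (*Hip*, *Hip-R*, *CHIP*, *mrj* and *Pfdn2*), beside 2.58% and 4.1% of all genes. None was called in PA against either control or in PB against WT, where at an unadjusted p under 0.05 in edgeR 4 were higher and 1 lower (PA against WT; 7.41% and 7.07% of all genes), 4 and 4 (PA against PA+PB; 11% and 9.54%) and 6 and 8 (PB against WT; 11.3% and 10.7%). In PA against null, *PEK* was called higher and *lncRNA:Hsromega*, a heat-inducible noncoding RNA, lower (-2.96, SE 0.55, adjusted p = 0.0124 in edgeR). *lncRNA:Hsromega* had 2144 to 3013 CPM in null, 44.4 to 547 CPM in PA and 177 to 406 CPM in PB. The controls had 375 to 843 CPM in PA+PB and 549 to 1232 CPM in WT. Its log2 fold change in PB against null was -2.20 (SE 0.62, adjusted p = 0.149 in edgeR), which was not called. *Hip* and *Hip-R* are close copies, so reads shared by them were not counted, and their levels and the split of their reads are uncertain.

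The 5 genes that the filter removed were *Hsp70Bbb*, *Hsp22*, *Hsp67Bb*, *Hsp60B* and *Hsp60C*. *Hsp22* had 0 counts in all 20 libraries. It lies within *Hsp67Bb* on the same strand of chromosome 3L (chr3L:9372931-9374964 within chr3L:9372722-9374964), where htseq-count's default leaves out reads that fall on both genes, and 1900 of the 2109 exon bases of *Hsp67Bb* fall in the span they share, so the values of both genes say nothing of their expression. *Hsp67Bb* and *Hsp60B* had under 3 counts in every PA, PB and PA+PB library, and *Hsp60C* in every PA and PA+PB library. The highest values were 0.640 CPM for *Hsp67Bb* (null replicate 1), 0.901 CPM for *Hsp60B* and 0.634 CPM for *Hsp60C* (both null replicate 4).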

How the data were processed

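The authors trimmed the reads with Trimmomatic, aligned them to dm6 using HISAT2, and obtained gene counts from htseq-count (0.11.1) run at its defaults. The deposited values are these raw counts, without normalization. The libraries were made with a ribodepleted Ovation RNA-seq kit, and whether they mark strand is not given in the sources used here, so reads of genes that overlap on opposite strands cannot be told apart. Of 17807 identifiers, 17710 matched Ensembl annotation release 115, used for symbols, positions and exon lengths, while the authors used release 99. The 5 summary values and 2 transgenes were left out, and 138 rRNA genes were removed. Column names stand 1 cell to the right of the values in the header and were assigned in that order.

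The fit used edgeR (4.0.16) under R (4.3.3), with filterByExpr, TMM scaling, glmQLFit and glmQLFTest over all 20 libraries, with genotype and 1 factor of unwanted variation (after RUVs) computed from the deviations of replicates. That factor followed depth in part: it was -1.31 to -1.30 in the null libraries and highest in PA replicate 2 (-0.498) and PB replicate 1 (-0.207), the 2 shallowest. SE is the absolute log2 fold change divided by the square root of F. CPM carry no correction for the factor. The code was tested on simulated data. Depth was 1665636 to 35678749 counts per library. The 38 genes and the list of 46 other genes (from which *CG18522*, planned as a chaperone, was left out since the annotation names it *AOX1*) were chosen with earlier results of these data known. Named with a value in every library were the genes called in at least 1 of 10 comparisons and, in each role group, those with the smallest p and the highest CPM per kb; *Hsp70Bb* and *Hsc70-2* were added after their values were seen. Alternatives were DESeq2 (1.42.0) size factors and Wald test, no filter, 0 or 2 factors, only the 2 genotypes compared, a replicate block and each library left out. Added after seeing the data were fits without the libraries under 5000000 counts, and the alternatives for genes with all libraries above the controls.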

Additional observations from a re-analysis of the deposited data

Results flagged for a closer look

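Of 74 groups of 4 libraries of the 15 genes named by rule, 8 held a value whose gap to its neighbours passed Dixon's 95% critical value for 4 values, 10.8% of the groups, where chance gives about 1 in 20. PB replicate 2 held 2 of these 8, *Hsp70Ba* at 55.6 CPM and *Hsp70Bc* at 11.1 CPM, each above the other 3 PB libraries. *Hsp70Bc* in PA replicate 1 (5.24 CPM) stood above the other PA libraries. *Hop* in PA replicate 2 (324 CPM) stood above the other PA libraries. *CCT3* in null replicate 4 (275 CPM) was above and *Hsp60A* in null replicate 1 (232 CPM) below the other null libraries. *Hsc70-4* in PA+PB replicate 2 (1275 CPM) lay below the other PA+PB libraries. *CCT7* in WT replicate 3 (114 CPM), the library labelled stage 12 to 15, lay above the other WT libraries.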

How the results depend on the processing

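No call of the 38 genes reversed its direction under any alternative. Percentages in brackets are shares of all genes called higher in the same comparison. They are not given for calls against both controls, with a replicate block or with 1 library left out. Those counts alone do not tell a change of these genes from a change in calls over all genes. With DESeq2's size factors 1 gene was called in null against WT (0.119%) and 5 in PB against WT (0.449%). With 0 factors the counts were 0 in PA against PA+PB (0.0825%), 5 in PB against PA+PB (0.715%) and 1 (lower) in PA against null, where 254 of all genes were lower. With 2 factors they were 1 in null against WT (0.514%), 2 in PA against PA+PB (0.449%), 5 in PB against WT (1.24%) and 5 in PB against both controls. DESeq2's Wald test called 3 in null against WT (1.35%), 8 in null against PA+PB (1.22%), 2 in null against both controls, 4 in PA against WT (2.33%), 8 in PA against PA+PB (4.04%), 2 in PA against both, 9 in PB against WT (5.26%), 13 in PB against PA+PB (9.15%), 8 in PB against both, 2 in PA against null (3.69%), 1 in PB against null (1.03%) and 6, all lower, in PA against PB (984 of all genes lower). With only the 2 genotypes compared, the counts were 20 (null against WT; 17.8%), 5 (null against PA+PB; 0.677%), 5 (null against both), 2 lower (PA against null, 223 of all genes lower) and 0 for PA against PA+PB and for PB against WT, PA+PB and both. Without the libraries under 5000000 counts, an alternative chosen after seeing the data, they were 1 in null against WT (0.226%), 0 in null against PA+PB (0.17%), 2 (0.396%), 7 (2.61%) and 1 in PA against WT, PA+PB and both, and 8 (0.995%), 14 (4.58%) and 7 in PB. In that setting 5 genes in PA and 16 in PB had all libraries above all controls, beside 2.67% and 12.8% of all genes. PB was left there with replicates 2 and 4 alone.

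With 1 library left out the counts ran from 0 to 1 (null against WT), 0 to 4 (null against PA+PB), 0 to 1 (PA against WT), 0 to 5 (PA against PA+PB), 1 to 7 (PB against WT), 3 to 13 (PB against PA+PB), 1 to 5 (PB against both) and 0 to 1 (PB against null). Genes with all libraries above all controls ran from 15 to 18 in null, 2 to 4 in PA and 3 to 7 in PB. The shares of all genes above all controls ran from 10.2% to 13.9%, 1.16% to 2.37% and 1.71% to 4.52%. The cause of these changes was not tested. With replicate number as a block, PA against PA+PB had 0 calls, PB against WT 2 and PB against PA+PB 7. The labels give no sign that equal numbers share a batch: over 40 pairs of the same number the deviations from group means had r of -0.49 to 0.52, and 9 pairs passed 0.1. The median of all genes in PA against PA+PB was 0.03 with TMM and -0.10 with DESeq2's size factors. Depth limits the PA, PB and PA+PB libraries most, where 3 counts corresponded to up to 1.80 CPM.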
